A study of Homo sapiens with 16 samples.

Results

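The 2 cultures treated with vardenafil, an inhibitor of phosphodiesterase 5 (PDE5), were set against the 12 cultures treated with 6 other compounds, among 16 sequenced cultures in all, with the 2 cultures in the solvent DMSO shown beside them. The groups were taken from the treatment labels, and no measured value was used to choose them. All cultures were planar differentiations of HUES8 (HUES08 in the labels), an established human embryonic stem cell line of unmodified (WT) genotype, towards pancreatic islets, and compounds were in the medium from stage 5 through 7 days of stage 6. The vardenafil dose was 125 nM. The other compounds, with 2 libraries each, were the tubulin-binding drug colchicine at 10 nM, the pain drug epirizole at 2.5 uM, the PI3 kinase inhibitor Ly-294002 at 120 nM, the antibiotic moxifloxacin at 1.1 uM, the kinase inhibitor rottlerin at 1.23 uM and the cannabinoid receptor antagonist rimonabant at 125 nM. A prediction tool had picked them from drug response signatures as possible modulators of beta-cell maturation, and the question here was what distinguished cultures given the PDE5 inhibitor. The compounds are unrelated in structure and were given at different doses, so the comparison is between vardenafil and an equally weighted mean of 6 unlike treatments. All libraries carried the same batch label, and no label told whether paired libraries were separate differentiations, so the p-values rest on a spread between libraries that may be technical in part.

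PDE5 breaks down cyclic GMP (cGMP), a second messenger made by nitric oxide-activated guanylate cyclases and by natriuretic peptide receptors. cGMP acts through protein kinase G, cyclic nucleotide-gated channels and other phosphodiesterases, and is carried out of cells by ABC transporters. PDE5 inhibitors are best known for relaxing vascular smooth muscle. They act on the enzyme, and neither its activity nor cGMP was measured in these RNA libraries.

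Library totals were 24290272 and 25129447 reads with vardenafil, 25397321 to 30701868 with the other compounds, and 23294377 and 26449943 in DMSO, so both vardenafil libraries were shallower than all 12 others. The part of depth in the results was not tested beyond this scaling. Levels are given as CPM, each gene's reads brought to a common library size with TMM factors, and differences are log2 with standard errors (SE) from 1 edgeR fit of all 16 libraries. A floor of 3 reads corresponded to 0.119 and 0.124 CPM in the vardenafil libraries and to 0.0977 to 0.118 CPM with the other compounds, which covers counting error only. Insulin (INS) lay at 2.35 and 3.82 CPM with vardenafil, at 0.782 to 6.25 CPM with the other compounds and at 3.01 and 0.652 CPM in DMSO, and the secretory granule protein CHGA at 47.0 and 207 CPM, 32.9 to 310 CPM (median 82.5) and 170 and 90.3 CPM in the same groups. Alpha-fetoprotein (AFP), a liver protein, lay at 3524 and 4828 CPM with vardenafil, 2570 to 6982 CPM with the other compounds and 4451 and 3121 CPM in DMSO, so the groups overlapped for all 3 of these genes. In such bulk RNA, fewer cells of a type and less RNA per cell cannot be told apart.

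No gene passed an adjusted p of 0.05 between vardenafil and the other compounds among the 24515 genes tested, 0% of them, with edgeR's quasi-likelihood test and Benjamini-Hochberg adjustment, and the smallest adjusted p was 0.121. At an unadjusted p under 0.05 there were 2393 genes, 9.76% of those tested, of which 1197 (4.88%) lay higher with vardenafil and 1196 (4.88%) lower. Against DMSO the adjusted count was also 0, with 1280 genes (5.22%) at an unadjusted p under 0.05 and a smallest adjusted p of 0.890. The 6 other compounds together differed from DMSO at 4466 genes (18.2%) by the unadjusted level, 0 by the adjusted one. That 0 depended on the fit: the adjusted count was 1470 without a filter on low counts, 1095 with DESeq2 and 1657 with an endocrine expression score as a covariate. It was 1179 without the first rimonabant library, 256 without the second, 432 without the second epirizole library and 2 without the first rottlerin library. These 3 comparisons share libraries, so their values are given side by side and are not independent of each other. With DESeq2 in place of edgeR, 118 of 15484 genes (0.762%) passed an adjusted p of 0.05 between vardenafil and the other compounds, 53 higher (0.342%) and 65 lower (0.42%). With an endocrine expression score as a covariate edgeR called 179 (0.73%), 110 higher (0.449%) and 69 lower (0.281%), and without a filter on low counts 639 of 44689 (1.43%), 379 higher (0.848%) and 260 lower (0.582%). Of these 639 genes 636 also passed the filter, so the shares over 44689 genes are lowered by genes with few reads. Every named difference below is therefore uncalled by the edgeR fit unless another fit is named.

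Genes of the hypoxia response and of glycolysis lay higher with vardenafil than with the other compounds, at about the level of DMSO. These genes are targets of hypoxia-inducible factors, which switch cells to glycolysis at low oxygen, and the culture oxygen level is not analysed here. Of the 28 listed, 27 passed the filter on low counts (CA9 did not), 23 lay higher and 4 lower, where 51.3% of all tested genes lay higher. The median log2 difference was 0.47, against 0.0075 over all tested genes. At an unadjusted p under 0.05 there were 17 higher and 1 lower, against 4.88% of all genes in each direction. In 10 of the 27 both vardenafil libraries lay above all 12 others, which held for 2.33% of tested genes. The median over the list, as a log2 difference from the DMSO mean, was 0.033 and 0.041 in the vardenafil libraries and -0.82 to 0.031 in the other 12, all 12 below both vardenafil libraries, the nearest by only a little. By compound this median averaged 0.037 with vardenafil, -0.74 with colchicine, -0.31 with epirizole, -0.34 with Ly-294002, -0.46 with moxifloxacin, -0.20 with rottlerin and -0.39 with rimonabant. Against DMSO the median difference of vardenafil was 0.049, 15 genes lay higher and 12 lower where 49.9% of all genes lay higher, and 0 of 27 reached an unadjusted p under 0.05, where 5.22% of all genes did.

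**Figure D1:**
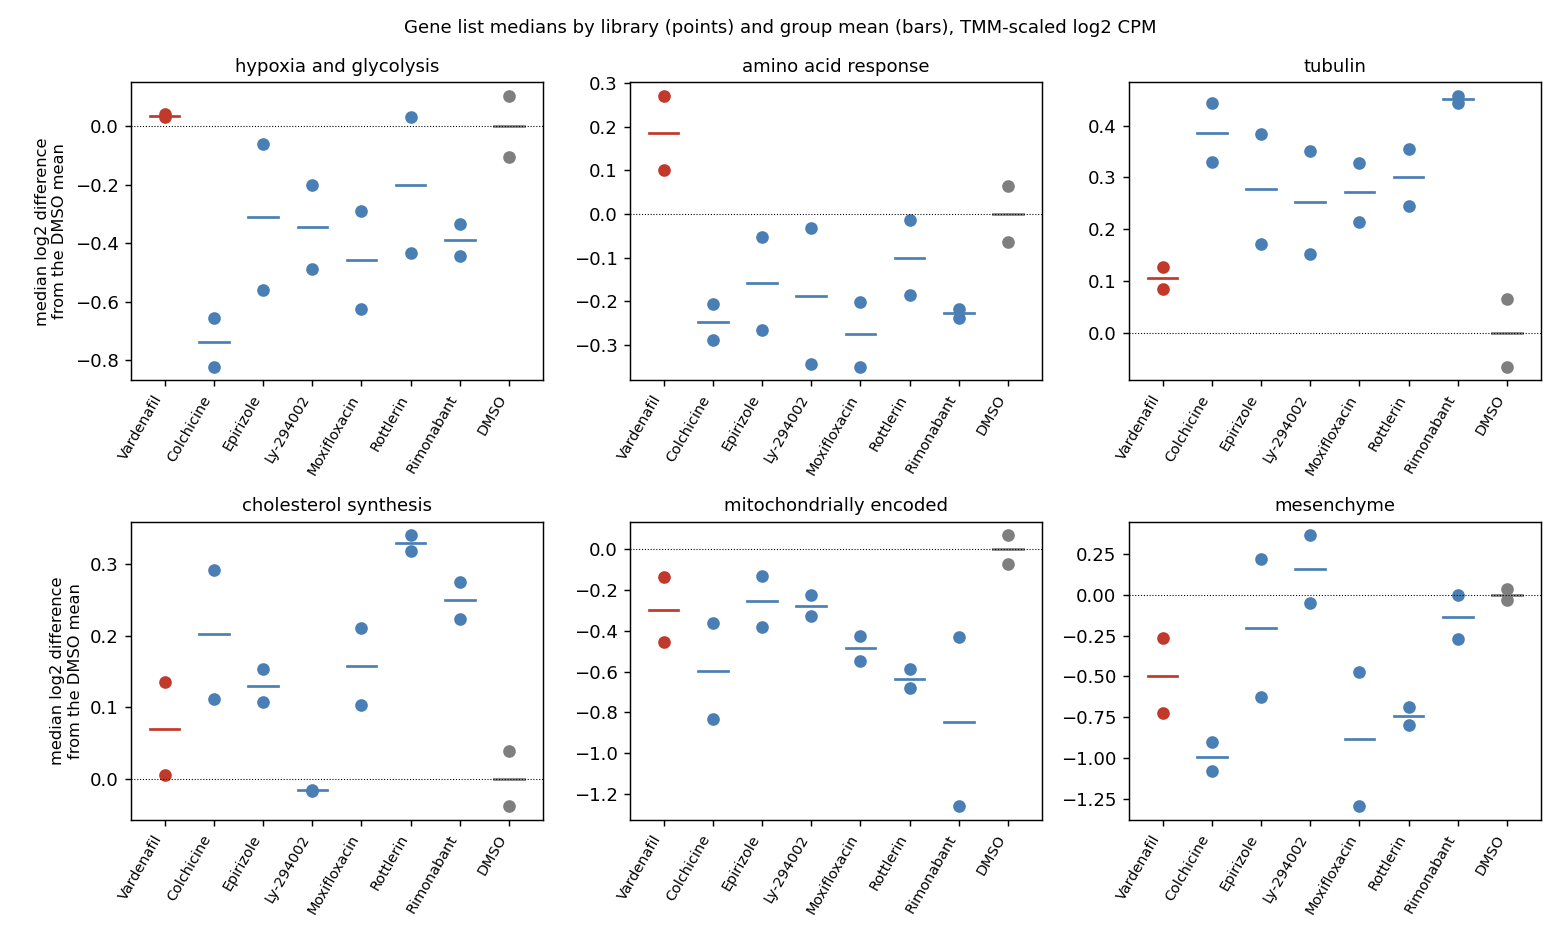
Median over each gene list of the log2 CPM difference from the mean of the 2 DMSO libraries (vertical axis), by library (points) and group mean (bars), for vardenafil (red), the 6 other compounds (blue) and DMSO (grey). For hypoxia and glycolysis genes the vardenafil libraries lie at 0.033 and 0.041 and the other compounds at -0.82 to 0.031, and for mesenchyme genes the groups overlap.

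Among glycolytic enzymes, PGK1 (phosphoglycerate kinase) had 401 and 396 CPM with vardenafil, 220 to 365 CPM with the other compounds (median 279), and 365 and 421 CPM in DMSO. Both vardenafil libraries thus lay above all 12 others and inside the DMSO pair. The log2 difference from the other compounds was 0.48 ± 0.13 (SE, edgeR adjusted p 0.317). Its mean by group was 398 CPM with vardenafil, 226 with colchicine, 311 with epirizole, 297 with Ly-294002, 283 with moxifloxacin, 321 with rottlerin, 282 with rimonabant and 393 in DMSO. ENO2, an enolase, had 92.6 and 97.7 CPM with vardenafil, 34.3 to 83.1 CPM with the other compounds and 68.9 and 89.6 CPM in DMSO, a difference from the other compounds of 0.79 ± 0.19 (edgeR adjusted p 0.302). ENO2 and BNIP3 were the 2 genes of the list above all 14 other libraries, which held for 1.02% of all tested genes. ALDOC, an aldolase, had 21.1 and 20.6 CPM with vardenafil, 8.47 to 19.9 CPM with the other compounds and 14.8 and 21.5 CPM in DMSO. ENO1 had 950 and 872 CPM with vardenafil, against 504 to 813 CPM with the other compounds and 754 and 953 CPM in DMSO, and lactate dehydrogenase LDHA had 761 and 797 CPM, against 352 to 742 CPM and 711 and 859 CPM. For both, the vardenafil libraries lay above the 12 others and between the DMSO libraries. PFKFB4, which sets the level of a glycolytic activator, had 70.6 and 54.3 CPM with vardenafil, 30.2 to 52.1 CPM with the other compounds and 43.7 and 54.6 CPM in DMSO (difference from the other compounds 0.65 ± 0.16, edgeR adjusted p 0.294).

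Outside glycolysis, BNIP3, a mitophagy receptor, had 134 and 140 CPM with vardenafil, 38.9 to 112 CPM with the other compounds (median 58.4) and 103 and 132 CPM in DMSO. Its difference from the other compounds, 1.00 ± 0.29, was the largest of the 27 (edgeR adjusted p 0.366). EGLN3, a prolyl hydroxylase that marks hypoxia-inducible factors for breakdown, had 18.1 and 12.4 CPM with vardenafil, 5.00 to 12.8 CPM with the other compounds and 13.2 and 10.7 CPM in DMSO, so the groups overlapped. VEGFA, the vascular growth factor, had 359 and 386 CPM with vardenafil, 173 to 385 CPM with the other compounds and 326 and 338 CPM in DMSO. ADM, the vasodilator adrenomedullin, lay the other way, with 28.8 and 30.0 CPM with vardenafil, 28.4 to 50.2 CPM with the other compounds and 42.0 and 29.9 CPM in DMSO. DESeq2 called 3 genes of the list higher, PFKFB4, PGK1 and ENO2 (0.342% of all genes). With the endocrine score edgeR called 6 higher (0.449% of all genes), PFKFB4, PGK1, ENO2, ENO1 and the glucose transporters SLC2A1 and SLC2A3. Without the filter on low counts edgeR called 18, of which 17 were higher (0.848% of the 44689 genes in that fit) and 1, ADM, lower (0.582%).

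The promoters of PGK1 and BNIP3, shown because the hypoxia list sits apart from the other compounds, carry the core letters that hypoxia-inducible factors bind. Each stretch is the 250 bases before the gene start in RefSeq on GRCh38.p14, at chrX:78103998-78104247 on the plus strand and chr10:131981924-131982173 on the minus strand, and capitals mark ACGTG or GCGTG read on either strand, where an overlapping pair counts as 2 matches (3 matches in PGK1 and 6 in BNIP3).
PGK1: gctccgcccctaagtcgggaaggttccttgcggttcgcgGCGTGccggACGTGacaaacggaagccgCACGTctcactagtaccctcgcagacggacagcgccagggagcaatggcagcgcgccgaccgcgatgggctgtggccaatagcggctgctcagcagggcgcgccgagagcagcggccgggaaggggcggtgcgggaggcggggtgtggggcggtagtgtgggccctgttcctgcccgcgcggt
BNIP3: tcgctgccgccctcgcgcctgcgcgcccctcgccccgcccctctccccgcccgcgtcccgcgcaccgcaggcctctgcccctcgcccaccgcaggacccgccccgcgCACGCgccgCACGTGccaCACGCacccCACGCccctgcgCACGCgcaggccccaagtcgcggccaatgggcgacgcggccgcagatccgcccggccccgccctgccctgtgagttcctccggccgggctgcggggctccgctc
Such letters are common: they occur in 31 of 36 promoter windows of the list (86.1%), which belong to 24 of its 28 genes, some with several starts, and in 15172 of all 35116 windows (43.2%). A match describes the sequence and is not evidence of binding.

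ASNS, AARS1 and CHAC1, genes of the amino acid response, lay above all 12 libraries of the other compounds in both vardenafil libraries, and CHAC1 was chosen after its values were seen. When amino acids or protein folding are limiting, the factor ATF4 drives enzymes of amino acid synthesis, amino acid carriers and the tRNA-charging enzymes. ASNS (asparagine synthetase, chromosome 7, 97852118 to 97872542 on the minus strand, GRCh38, GENCODE 29) had 10.8 and 10.6 CPM with vardenafil, 3.65 to 8.31 CPM with the other compounds and 9.55 and 8.98 CPM in DMSO. Both vardenafil libraries lay above all 14 others. The difference from the other compounds was 0.95 ± 0.17 (edgeR adjusted p 0.169), and that from DMSO 0.21 ± 0.24 (edgeR adjusted p 0.933). AARS1, the alanine tRNA-charging enzyme, had 165 and 149 CPM with vardenafil, 105 to 127 CPM with the other compounds and 120 and 151 CPM in DMSO (0.46 ± 0.08 from the other compounds, edgeR adjusted p 0.169). CHAC1, a glutathione-degrading enzyme, had 10.8 and 10.4 CPM with vardenafil, 3.34 to 8.89 CPM with the other compounds and 8.89 and 9.40 CPM in DMSO.

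A list of 36 such genes was drawn up after the values of ASNS and AARS1 had been seen, so it describes and supports nothing. Its median difference from the other compounds was 0.36, with 34 of 36 higher (51.3% of all genes), 22 of them at an unadjusted p under 0.05 (4.88% of all genes), and 18 had both vardenafil libraries above all 12 others (2.33% of all genes). The library medians were 0.27 and 0.10 with vardenafil and -0.35 to -0.014 with the other compounds, as log2 differences from the DMSO mean. Among the tRNA-charging enzymes, IARS1 had 296 and 266 CPM with vardenafil against 189 to 247 CPM with the other compounds, and YARS1 had 96.2 and 86.2 CPM against 54.6 to 80.3 CPM. In DMSO IARS1 had 235 and 261 CPM and YARS1 80.5 and 85.8 CPM, so for both the vardenafil libraries lay above all 14 others. PSAT1, of serine synthesis, had 55.1 and 46.0 CPM with vardenafil, 26.2 to 42.0 CPM with the other compounds and 39.1 and 54.1 CPM in DMSO. SLC7A11, the cystine carrier, had 150 and 118 CPM with vardenafil, 66.3 to 113 CPM with the other compounds and 104 and 145 CPM in DMSO. Both overlapped with DMSO and not with the other compounds. Against DMSO the list's median was 0.19, with 31 of 36 higher and 5 at an unadjusted p under 0.05, all higher (2.77% of all genes). DESeq2 called 9 of the 36 against the other compounds, all higher (0.342% of all genes): ASNS, AARS1, IARS1, YARS1, PSAT1, SHMT2, MTHFD2, SLC7A11 and CHAC1. A list of 14 stress genes overlaps with this one, with ASNS, CHAC1 and DDIT3 among the shared members, so it is not independent. In it 11 lay higher than with the other compounds and the median was 0.14.

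The promoters of ASNS and CHAC1 each hold the letters TGATGNAA, the form to which ATF4 binds with a C/EBP partner, in capitals here on either strand. They are the 250 bases before the start in RefSeq on GRCh38.p14, at chr7:97872409-97872658 on the minus strand and chr15:40953221-40953470 on the plus strand, and ASNS has a second listed start whose window holds no match.
ASNS: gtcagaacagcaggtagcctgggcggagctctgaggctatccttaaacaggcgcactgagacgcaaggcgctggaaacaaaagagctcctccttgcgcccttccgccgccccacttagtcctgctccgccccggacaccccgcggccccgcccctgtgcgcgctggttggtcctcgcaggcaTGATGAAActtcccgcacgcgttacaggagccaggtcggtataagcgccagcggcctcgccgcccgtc
CHAC1: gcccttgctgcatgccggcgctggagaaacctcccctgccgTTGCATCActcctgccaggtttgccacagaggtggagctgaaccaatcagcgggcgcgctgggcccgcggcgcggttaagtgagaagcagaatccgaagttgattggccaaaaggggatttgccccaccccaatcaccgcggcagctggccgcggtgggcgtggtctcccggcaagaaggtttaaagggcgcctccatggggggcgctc
The letters occur in 6 of 49 windows of the list (12.2%), which belong to 31 of its 36 genes, and in 1104 of all 35116 windows (3.14%). The letters ACGTG or GCGTG, shown above for PGK1 and BNIP3, occur in 34 of these 49 windows (69.4%), so they are not particular to the hypoxia list.

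Tubulin genes lay lower with vardenafil than with the other compounds, again nearer to DMSO. Of 14 tested tubulin genes 12 lay lower and 2 higher, with a median log2 difference of -0.23 against 0.0075 over all genes. At an unadjusted p under 0.05 there were 7 lower and 1 higher, where 4.88% of all genes were lower. The library medians, as log2 differences from the DMSO mean, were 0.13 and 0.084 with vardenafil and 0.15 to 0.46 with the other compounds, and colchicine, which binds tubulin, averaged 0.39 beside 0.45 with rimonabant. Against DMSO the median was 0.075, with 11 of 14 higher (49.9% of all genes) and 1 at an unadjusted p under 0.05 (5.22% of all genes). TUBA1A, an alpha tubulin, had 211 and 238 CPM with vardenafil, 282 to 394 CPM with the other compounds and 263 and 213 CPM in DMSO. Both vardenafil libraries lay below all 12 others, with a difference of -0.59 ± 0.14 (edgeR adjusted p 0.265). It was the 1 gene of the list called by DESeq2, with the endocrine score, or without the filter on low counts, each time lower. Lower calls made up 0.42%, 0.281% and 0.582% of all genes in these fits. TUBB4B, a beta tubulin, was the other of the 2 genes below all 12 (2.26% of tested genes), with 120 and 124 CPM with vardenafil, 125 to 159 CPM with the other compounds and 118 and 113 CPM in DMSO. TUBB6 had 45.4 and 35.9 CPM with vardenafil against 43.0 to 61.0 CPM, and TUBA1C 131 and 117 CPM against 124 to 166 CPM, so both overlapped with the other compounds. In DMSO TUBB6 had 46.2 and 37.5 CPM and TUBA1C 118 and 106 CPM. TUBE1, the epsilon tubulin of centrioles, lay higher, with 15.7 and 13.2 CPM with vardenafil, 8.40 to 14.4 CPM with the other compounds and 14.5 and 13.0 CPM in DMSO. TUBA1A (chromosome 12, 49184796 to 49189324, minus strand) overlaps TUBA1C (49188736 to 49274603, plus strand), and tubulin copies are near-identical, so reads may have been split between them.

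**Figure D2:**
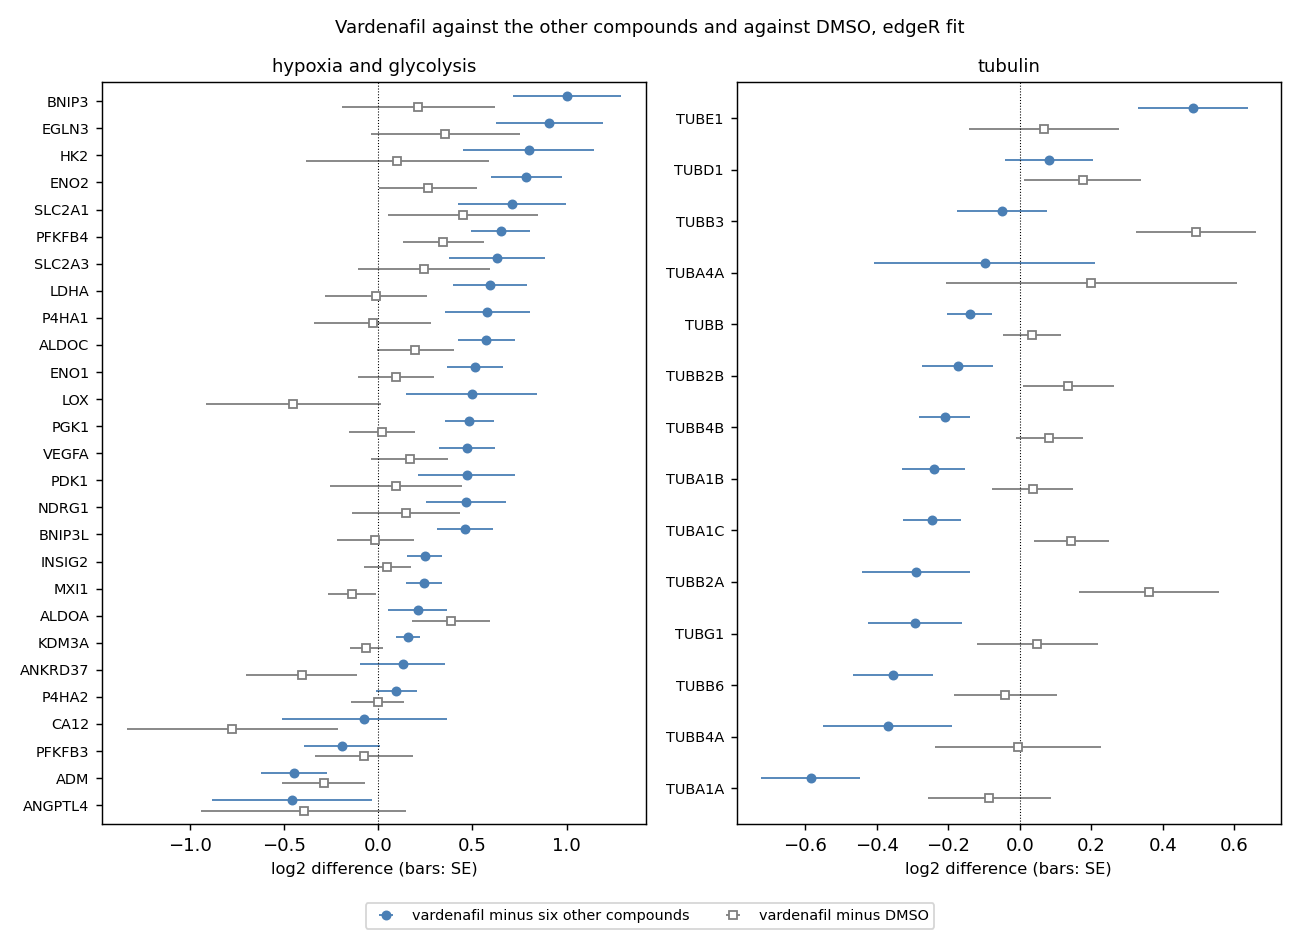
Log2 difference (horizontal axis, bars show SE) of vardenafil from the mean of the 6 other compounds (filled blue circles) and from DMSO (open grey squares) for 27 hypoxia and glycolysis genes and 14 tubulin genes. The median difference from the other compounds is 0.47 for the first list and -0.23 for the second, and that from DMSO is 0.049 and 0.075.

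The 13 protein-coding genes of the mitochondrial genome are all subunits of the respiratory chain and ATP synthase. In vardenafil cultures they lay between the mean of the other compounds and DMSO, though not apart from each compound. All 13 lay higher than with the other compounds (median 0.20), 1 of them at an unadjusted p under 0.05 (9.76% of all genes). All 13 lay lower than in DMSO (median -0.29), 0 at that level (5.22% of all genes). They are cut from shared precursor transcripts, so 13 genes are not 13 separate measurements. All genes with symbols starting in MT-, ribosomal RNAs included, made up 2.14% and 2.52% of reads with vardenafil. They made up 1.43% to 2.51% with the other compounds and 2.66% and 2.84% in DMSO. The library medians of the 13 genes were -0.46 and -0.14 with vardenafil and -1.26 to -0.13 with the other compounds, so the groups overlapped. By compound this median averaged -0.30 with vardenafil, -0.26 with epirizole and -0.28 with Ly-294002, both slightly nearer to DMSO than vardenafil. It averaged -0.48 with moxifloxacin, -0.60 with colchicine, -0.63 with rottlerin and -0.85 with rimonabant. The 2 rimonabant libraries stood far apart, at -0.43 and -1.26. The second of them sets the low end of the ranges given below for MT-ND1, MT-ND2, MT-ND3 and MT-ND6. MT-ND6, a complex I subunit encoded on the opposite strand from the rest, had 341 and 478 CPM with vardenafil, 150 to 411 CPM with the other compounds and 432 and 578 CPM in DMSO (0.61 ± 0.22 from the other compounds, edgeR adjusted p 0.418). MT-ND1 had 1744 and 2096 CPM with vardenafil, 865 to 2000 CPM with the other compounds and 2064 and 2400 CPM in DMSO, and MT-ND3 had 348 and 370 CPM, 168 to 372 CPM and 380 and 423 CPM. MT-ND2 had 1131 and 1400 CPM with vardenafil, 534 to 1357 CPM with the other compounds and 1500 and 1759 CPM in DMSO. MT-CO1, a subunit of cytochrome oxidase, differed less, with 6297 and 6955 CPM with vardenafil and 4560 to 6937 CPM with the other compounds. The list's median was 0.059 without the second vardenafil library and 0.33 without the first. Without the filter on low counts edgeR called 5 of the 13 higher than with the other compounds, MT-ND1, MT-ND2, MT-ND3, MT-ND4L and MT-ND6 (0.848% of the 44689 genes in that fit). The same fit called both mitochondrial ribosomal RNAs, MT-RNR1 and MT-RNR2, lower (0.582% of those genes). With the filter the smaller edgeR adjusted p of the pair was 0.818. Their median, as a log2 difference from the DMSO mean, was -1.06 and 2.60 in the 2 colchicine libraries. Ribosomal RNA was removed before sequencing, and the part of that step in these values was not tested. MT-RNR2 had 9.64 and 23.6 CPM with vardenafil, 5.53 to 147 CPM with the other compounds (median 29.7) and 21.7 and 10.2 CPM in DMSO, so all groups overlapped. Nuclear genes of the same complexes had a median of -0.050 from the other compounds, with 21 of 25 lower, where 51.3% of all genes lay higher.

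PDE5A, the target of the drug, is on chromosome 4 (119494395 to 119628991, minus strand, GRCh38, GENCODE 29). It had 56.4 and 68.0 CPM with vardenafil, 43.2 to 110 CPM with the other compounds (median 83.8) and 85.0 and 58.0 CPM in DMSO. Vardenafil overlapped with DMSO, and with the other compounds only through the second rimonabant library, at 43.2 CPM. The rest of the other compounds lay at 72.4 CPM or more, above both vardenafil libraries. The difference of -0.38 ± 0.22 from the other compounds missed the threshold (edgeR adjusted p 0.607). So did that of -0.20 ± 0.28 from DMSO (edgeR adjusted p 0.950). Without the rimonabant libraries the difference from the other compounds was -0.46 ± 0.16 (edgeR adjusted p 0.400). By group PDE5A averaged 62.2 CPM with vardenafil, 97.8 with colchicine, 83.8 with epirizole, 83.7 with Ly-294002, 82.2 with moxifloxacin, 82.0 with rottlerin, 61.5 with rimonabant and 71.5 in DMSO. Without the filter on low counts edgeR called it lower than with the other compounds (-0.39 ± 0.097, adjusted p 0.00823). The difference was nearly that of the filtered fit, and the SE was smaller.

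The list of cGMP pathway genes, PDE5A included, was divided in direction. Of 43 genes listed 35 were tested, of which 20 lay higher and 15 lower than with the other compounds, with a median of 0.037 and 5 at an unadjusted p under 0.05 (3 higher, 2 lower), against 9.76% of all genes. Against DMSO 20 lay higher and 15 lower, with a median of 0.020. Of the enzymes that make cGMP, the guanylate cyclase subunit GUCY1A2 had 123 and 176 CPM with vardenafil, 68.6 to 126 CPM with the other compounds and 151 and 120 CPM in DMSO (0.55 ± 0.16 from the other compounds, edgeR adjusted p 0.339). The other alpha subunit, GUCY1A1, and the beta subunit GUCY1B1 overlapped in all groups, GUCY1B1 with 4.74 and 2.74 CPM with vardenafil, 2.23 to 6.29 CPM with the other compounds and 4.23 and 2.88 CPM in DMSO. Of the effectors, protein kinase G (PRKG1) had 15.2 and 15.3 CPM with vardenafil, 10.9 to 21.8 CPM with the other compounds and 16.8 and 18.2 CPM in DMSO. The channel subunit CNGB1 was near the floor, with 0.319 and 0.748 CPM with vardenafil, 0 to 0.374 CPM with the other compounds and 0.0872 and 0.153 CPM in DMSO. Of the genes that remove cGMP, the phosphodiesterase PDE10A had 53.5 and 54.0 CPM with vardenafil, 40.6 to 51.0 CPM with the other compounds and 63.9 and 65.6 CPM in DMSO, so it lay between groups that do not overlap it. ABCC5, the exporter, had 53.4 and 52.5 CPM with vardenafil, 55.5 to 73.2 CPM with the other compounds and 58.5 and 53.1 CPM in DMSO (-0.27 ± 0.08 from the other compounds, edgeR adjusted p 0.322).

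**Figure D3:**
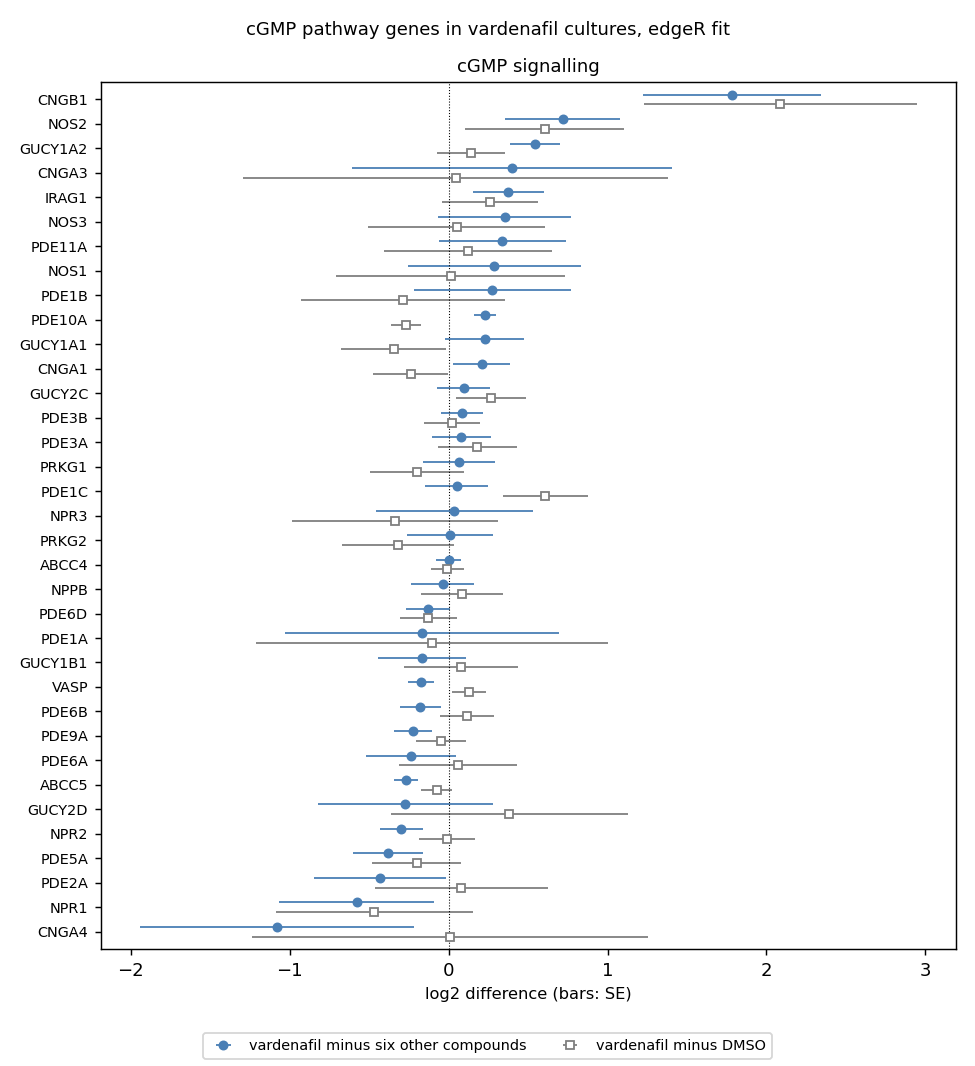
Log2 difference (horizontal axis, bars show SE) of vardenafil from the mean of the 6 other compounds (filled blue circles) and from DMSO (open grey squares) for the 35 tested genes of cGMP synthesis, breakdown, export and response. Of these 20 lie above 0 and 15 below in each comparison, and PDE5A lies at -0.38 and -0.20.

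Mesenchyme genes did not separate vardenafil from the other compounds as a list. They lay lower than in DMSO both with vardenafil and in the mean of the other compounds. All 20 were tested, with 16 lower and 4 higher than with the other compounds, a median of -0.11 and 3 at an unadjusted p under 0.05 (9.76% of all genes). Against DMSO 19 of 20 lay lower, with a median of -0.54 and 5 at that level (5.22% of all genes). These 5 were DCN, POSTN, PDGFRB, FMOD and FAP. FMOD and FAP had 1 read in each vardenafil library and passed the filter through the other groups, so they add no support. The mean of the other compounds lay equally low against DMSO, with 17 of 20 lower, a median of -0.55 and 8 at that level (18.2% of all genes). The library medians were -0.27 and -0.72 with vardenafil and -1.29 to 0.36 with the other compounds. The median against the other compounds was -0.40 without the first vardenafil library and 0.024 without the second, so its sign rests on 1 library. Without the filter on low counts edgeR called 4 genes of the list against the other compounds, DCN, FBN1 and TAGLN lower and MEOX1 higher. In that fit 0.582% of 44689 genes were called lower and 0.848% higher. DCN (decorin, a collagen-binding proteoglycan, chromosome 12, 91140484 to 91183123, minus strand) had 18.2 and 19.5 CPM with vardenafil, 12.6 to 52.9 CPM with the other compounds (median 21.6) and 41.8 and 52.0 CPM in DMSO. Vardenafil lay within the other compounds and below both DMSO libraries, at -1.32 ± 0.55 from DMSO (edgeR adjusted p 0.890). By group DCN averaged 18.8 CPM with vardenafil, 25.5 with colchicine, 37.0 with epirizole, 39.3 with Ly-294002, 17.3 with moxifloxacin, 14.6 with rottlerin, 32.2 with rimonabant and 46.9 in DMSO. FMOD (fibromodulin, of the same family, chromosome 1, 203340628 to 203351758, minus strand) had 1 read in each vardenafil library, against 4 to 16 reads with the other compounds and 12 and 15 in DMSO. Its summed reads per depth were 7.07 times higher with the other compounds than with vardenafil (95% counting interval 1.91 to 59.2) and 13.4 times higher in DMSO (3.37 to 116), and these are the levels through which it passed the filter. With edgeR its adjusted p was 0.309 against the other compounds.

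Of the 12 small leucine-rich proteoglycans listed only 5 passed the filter on low counts, so they do not stand for the family. LUM (lumican) had 26.1 and 22.8 CPM with vardenafil, 15.8 to 38.6 CPM with the other compounds and 37.3 and 40.4 CPM in DMSO, and BGN (biglycan) had 8.05 and 5.11 CPM, 3.75 to 11.9 CPM and 6.19 and 9.02 CPM. BGN differed from the other compounds by -0.10, and by 0.022 without the rimonabant libraries and 0.19 without the second vardenafil library, so it has no stable direction. PRELP was near the floor, with 0.0797 and 0.125 CPM with vardenafil and 0 to 0.521 CPM with the other compounds. TAGLN, an actin-binding protein of smooth muscle, had 111 and 95.9 CPM with vardenafil, 116 to 200 CPM with the other compounds and 132 and 79.8 CPM in DMSO, so both vardenafil libraries lay below all 12 others (-0.57 ± 0.17, edgeR adjusted p 0.362). PDGFRB, a growth factor receptor of pericytes, had 15.1 and 12.4 CPM with vardenafil, 10.9 to 27.9 CPM with the other compounds and 19.0 and 20.9 CPM in DMSO. MEOX1, a mesodermal transcription factor, lay higher, with 2.43 and 1.45 CPM with vardenafil, 0.243 to 1.91 CPM with the other compounds and 2.14 and 2.00 CPM in DMSO. The main collagens overlapped in all groups, COL3A1 with 1050 and 661 CPM with vardenafil, 435 to 1250 CPM with the other compounds and 1007 and 929 CPM in DMSO.

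Single genes with the smallest p were led by LMO1, a LIM-domain transcription regulator (chromosome 11, 8224304 to 8268716, minus strand). It had 4.58 and 3.66 CPM with vardenafil, 0.482 to 1.87 CPM with the other compounds and 1.35 and 0.998 CPM in DMSO, so both libraries lay above all 14 others. The difference was 1.69 ± 0.26 from the other compounds (edgeR adjusted p 0.121) and 1.81 ± 0.39 from DMSO (edgeR adjusted p 0.890). Genes with both vardenafil libraries above all 14 others made up 1.02% of those tested, 250 genes, and those below all 14 also 1.02%, 251 genes. IGFBPL1 was such a gene, with 12.5 and 8.27 CPM with vardenafil, 3.50 to 7.09 CPM with the other compounds and 5.41 and 5.14 CPM in DMSO. SLC16A12, a creatine carrier, had 6.58 and 5.57 CPM with vardenafil, 2.41 to 4.22 CPM with the other compounds and 3.40 and 3.26 CPM in DMSO, and SOX21, a neural transcription factor, 8.01 and 4.82 CPM, 0.278 to 3.52 CPM and 2.40 and 2.72 CPM. HIF1A-AS3, listed as a non-coding RNA, had 10.4 and 8.48 CPM with vardenafil, 0.620 to 6.99 CPM with the other compounds and 4.27 and 6.18 CPM in DMSO, and is uncertain because the use of strand in counting is not stated. RIC3, a chaperone of acetylcholine receptors, had 11.0 and 9.56 CPM with vardenafil, 4.09 to 8.47 CPM with the other compounds and 7.15 and 7.21 CPM in DMSO.

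GLRX, glutaredoxin, a reducer of glutathione-bound proteins, lay lower, with 14.3 and 13.5 CPM with vardenafil, 18.6 to 40.3 CPM with the other compounds and 28.3 and 19.1 CPM in DMSO (-1.05 ± 0.19 from the other compounds, edgeR adjusted p 0.205). GSTP1, a glutathione transferase, had 228 and 226 CPM with vardenafil, 275 to 360 CPM with the other compounds and 249 and 219 CPM in DMSO (-0.45 ± 0.08, edgeR adjusted p 0.121). IGDCC4, a cell surface protein, had 10.0 and 9.10 CPM with vardenafil, 15.0 to 20.6 CPM with the other compounds and 15.9 and 12.4 CPM in DMSO. SLIT3, a guidance ligand, had 54.0 and 50.4 CPM with vardenafil, 61.3 to 93.3 CPM with the other compounds and 70.8 and 60.9 CPM in DMSO. For GLRX, IGDCC4 and SLIT3 both vardenafil libraries lay below all 14 others, and for GSTP1 below the 12. GRIK2, a glutamate receptor subunit, had 32.4 and 30.4 CPM with vardenafil, 15.1 to 23.7 CPM with the other compounds and 27.6 and 31.5 CPM in DMSO. Of the other genes with the smallest p, the mannosidase MAN1A1 had 154 and 142 CPM with vardenafil, 97.9 to 129 CPM with the other compounds and 130 and 134 CPM in DMSO. The mitochondrial carrier SLC25A36 had 226 and 220 CPM with vardenafil, 147 to 194 CPM with the other compounds and 207 and 224 CPM in DMSO. RHOC, a small GTPase, had 55.6 and 62.1 CPM with vardenafil, 62.0 to 94.9 CPM with the other compounds and 58.5 and 54.9 CPM in DMSO. DESeq2 and edgeR with the endocrine score each called GRIK2, IGFBPL1, SLC16A12, RIC3, MAN1A1 and SLC25A36 higher and GLRX, GSTP1, IGDCC4, SLIT3 and RHOC lower than with the other compounds. LMO1 was called higher with the endocrine score, and DESeq2 gave it no adjusted p. LAMA4, a laminin chain of vessel walls, had the smallest p against DMSO, with 1.12 and 0.914 CPM with vardenafil, 0.625 to 6.84 CPM with the other compounds and 5.54 and 6.64 CPM in DMSO (-2.58 ± 0.46 from DMSO, edgeR adjusted p 0.890).

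**Figure D4:**
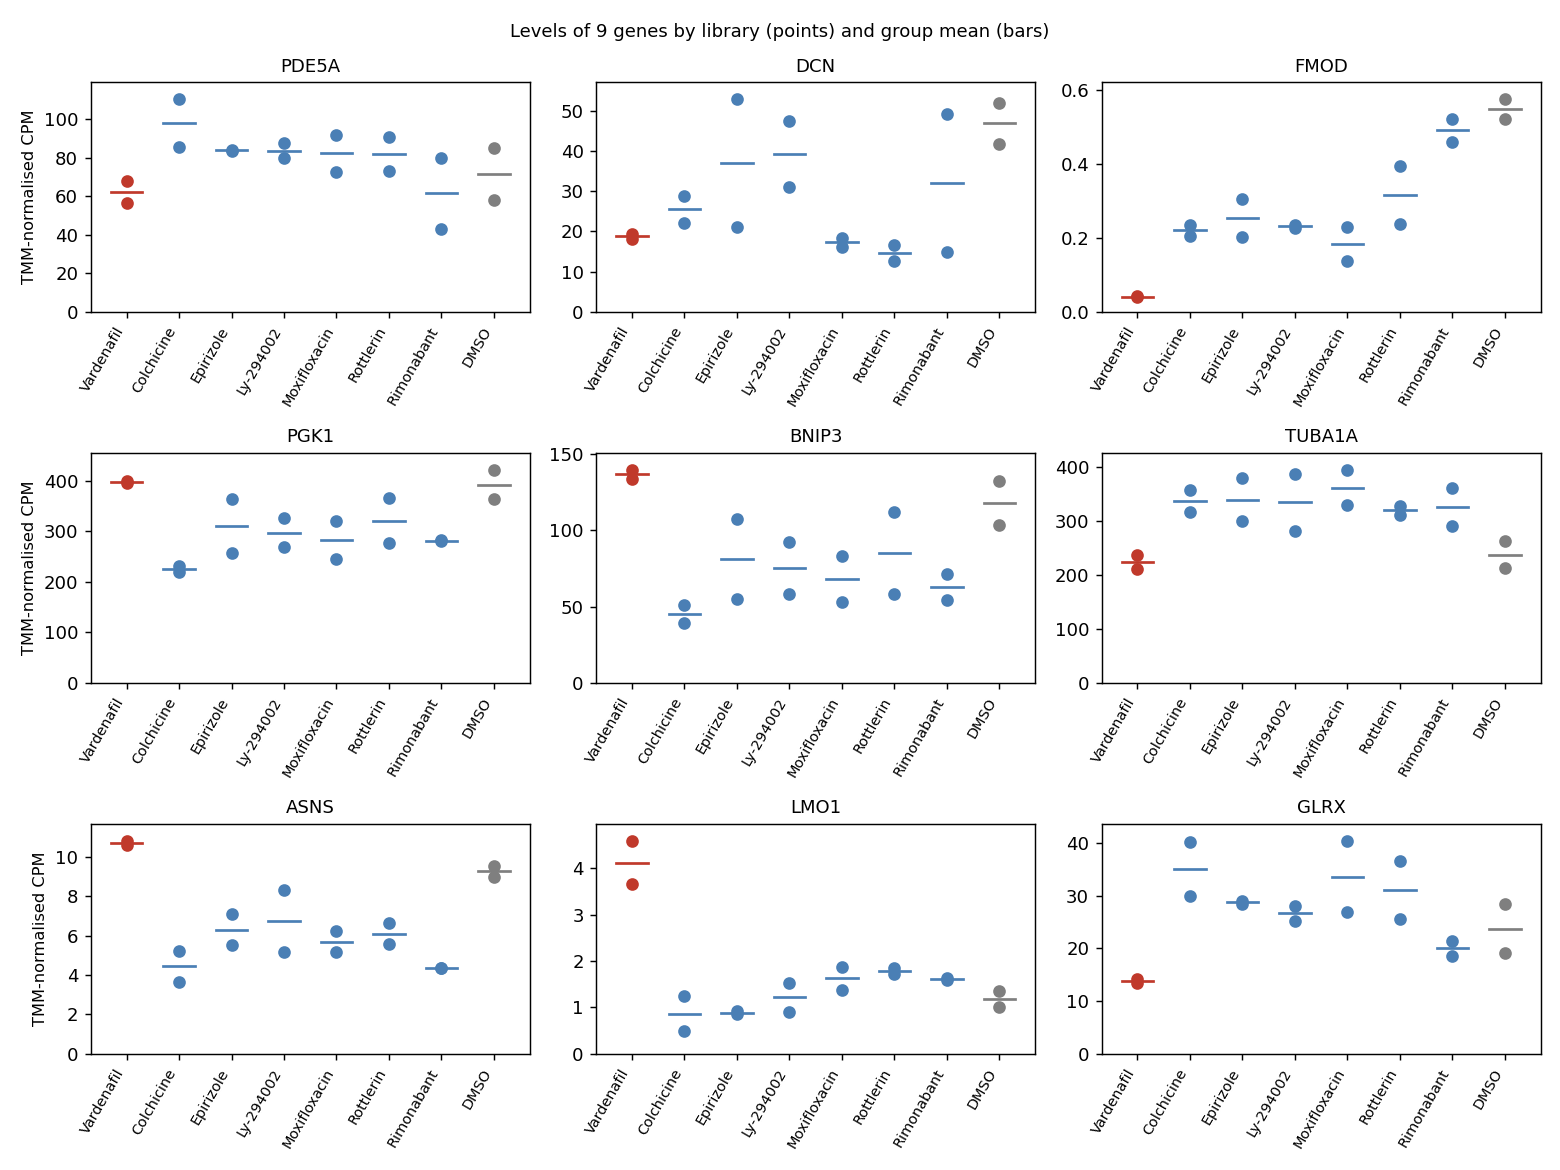
TMM-normalised CPM (vertical axes, starting at 0) of 9 genes by library (points) and group mean (bars) for vardenafil (red), the 6 other compounds (blue) and DMSO (grey). PGK1, BNIP3, ASNS and LMO1 lie above all 12 other compound libraries with vardenafil, and TUBA1A and GLRX below them. FMOD also lies below them, but has 1 read in each vardenafil library, under the floor of 3 reads. It passed the filter through the other groups. DCN overlaps with the 12 libraries, and PDE5A does so through the second rimonabant library.

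Genes of cholesterol synthesis lay lower with vardenafil than with the other compounds, with 20 of 21 lower, a median of -0.17 and 11 at an unadjusted p under 0.05, all lower (4.88% of all genes). No gene of the list had both vardenafil libraries outside all 12 others. Against DMSO the list's median was 0.068, with 12 of 21 higher. By compound the library median averaged 0.070 with vardenafil, -0.016 with Ly-294002 and 0.33 with rottlerin.

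Immediate-early genes, which follow growth factor and cAMP signals within minutes, lay lower than in DMSO, with 12 of 16 lower, a median of -0.33 and 7 at an unadjusted p under 0.05, all lower (2.45% of all genes were lower by that level). ATF3 had 83.9 and 83.8 CPM with vardenafil, 65.8 to 129 CPM with the other compounds and 122 and 114 CPM in DMSO, and EGR1 had 405 and 401 CPM, 326 to 480 CPM and 500 and 558 CPM. Both lay below both DMSO libraries and within the other compounds, from which the list's median differed by -0.050. Endocrine genes lay at a median of 0.14 from the other compounds, with 14 of 23 higher (51.3% of all genes). Of them 0 reached an unadjusted p under 0.05 (9.76% of all genes). The endocrine score, a mean log2 CPM of 9 genes, was 1.90 and 3.75 in the vardenafil libraries, 1.46 to 4.21 with the other compounds and 3.55 and 2.40 in DMSO, so the 2 vardenafil libraries differed from each other by most of that range.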

How the data were processed

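Total RNA of whole cultures was sequenced from both ends after removal of ribosomal RNA. Per the labels' protocols, reads were trimmed with Trimmomatic 0.38 and aligned with STAR 2.7.1a, and counted with featureCounts 1.6.0 or HTSeq. The submitters' processing notes name HTSeq and GRCh38. The annotation release, strand setting and treatment of multiply mapped reads are not given in the sources used here. The deposited values are raw read counts per gene from the authors, 62754 genes by 16 libraries, not normalised, with 0 columns left unmapped.

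Counts were tested in R 4.3.3 with edgeR 4.0.16 (filterByExpr, 24515 genes holding 99.92% of reads, TMM, robust quasi-likelihood F test, two-sided, 1 coefficient per group, 8 residual degrees of freedom, Benjamini-Hochberg over all tested genes, threshold 0.05, biological coefficient of variation 0.165). DESeq2 1.42.0, other scalings, filters and covariates were alternatives. Replicate pairs differed beyond sampling noise. Promoter sequences came from RefSeq (GRCh38.p14) and coordinates from GENCODE 29.

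The members and lists were chosen with earlier results of these data known. Named genes were the markers PDE5A, DCN and FMOD, the 4 members with the smallest p in each of 6 lists, the 12 genes with the smallest p against the other compounds and 6 against DMSO (at least 1 CPM in a group), and up to 6 genes in each direction outside all 14 other libraries (at least 5 CPM). A few of these are not reported here. Other genes were given as examples after their values were seen. Lists were described by counts and medians and not tested.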

Additional observations from a re-analysis of the deposited data

How the results depend on the processing

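The edgeR count between vardenafil and the other compounds was 0 with RLE scaling, with the 12 other libraries pooled as 1 group, in the 14 compound libraries alone and with a GC offset. It was 639 without a filter on low counts, 118 with DESeq2 and 179 with the endocrine score as a covariate. Of the DESeq2 calls 90 were shared with the endocrine score fit, 76.3% of the first list and 50.3% of the second. For vardenafil against DMSO the same 3 settings gave 113, 2 and 1 calls, and for the other compounds against DMSO 1470, 1095 and 1657, with 440 without epirizole and 314 without Ly-294002. The causes were not tested. Same-numbered replicates showed no common deviation over all genes (28 pairs of groups, correlations -0.28 to 0.23, 5 over 0.1 and 9 under -0.1). Such correlations cannot settle whether the numbers pair the samples, because other differences within pairs may mask a shared one. The replicate block gave 0 calls for vardenafil against the other compounds, 0 against DMSO and 1 for the other compounds against DMSO. Leaving out 1 library gave 0 to 2 calls for vardenafil against the other compounds (2 without the second colchicine library), 0 to 0 against DMSO and 0 to 1179 for the other compounds against DMSO (1179 without the first rimonabant library). The list medians ran over 0.44 to 0.54 (hypoxia and glycolysis), -0.24 to -0.19 (tubulin), 0.059 to 0.33 (mitochondrially encoded), -0.40 to 0.024 (mesenchyme) and -0.11 to 0.083 (cGMP signalling). Of 1580 values of 51 named genes, 1495 kept direction and side of the threshold, 83 passed it and 2 changed sign: BGN, at 0.022 without rimonabant and at 0.19 without the second vardenafil library, its range without 1 library being -0.47 to 0.19. Depth and 2 libraries a group limit genes near the floor, such as FMOD.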

Other observations

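Targets of p53 lay lower with vardenafil than with the other compounds in 12 of 15 cases (median -0.093), where 51.3% of all genes lay higher. As medians of log2 differences from DMSO, the list stood at -0.020 with vardenafil, -0.036 with Ly-294002, -0.043 with moxifloxacin, -0.0077 with rimonabant, 0.039 with epirizole, 0.19 with rottlerin and 0.38 with colchicine, so vardenafil lay among the compounds nearest to DMSO. CDKN1A, an inhibitor of the cell cycle, had the smallest p of the list. It had 55.9 and 54.7 CPM with vardenafil, 49.4 to 114 CPM with the other compounds and 53.3 and 47.5 CPM in DMSO. DESeq2 and the fit with the endocrine score called it lower than with the other compounds. BAX, a cell death effector, had 42.5 and 42.0 CPM with vardenafil, 37.3 to 65.5 CPM with the other compounds and 40.4 and 35.7 CPM in DMSO, so vardenafil overlapped with the other compounds for both genes. Cell cycle genes lay at a median of 0.037, with 14 of 23 higher and 0 at an unadjusted p under 0.05 (9.76% of all genes).

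The channel subunits KCNJ8 and ABCC9, which together form the potassium channel of vessel walls that responds to ATP, lay lower with vardenafil than with most other libraries. KCNJ8 had 30.5 and 37.1 CPM with vardenafil, 35.3 to 56.6 CPM with the other compounds and 43.0 and 39.8 CPM in DMSO. ABCC9 had 14.9 and 22.0 CPM with vardenafil, 16.6 to 31.4 CPM with the other compounds and 31.9 and 32.8 CPM in DMSO. Both were chosen after their values were seen. The smooth muscle and pericyte list as a whole had 7 of 13 lower and 6 higher than with the other compounds, where 51.3% of all genes lay higher. Its median was -0.14 and its highest difference 0.87, so KCNJ8 and ABCC9 do not stand for the list.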
